A study of Mus musculus with 12 samples.

Results

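The enzymes that build heparan sulphate and chondroitin sulphate chains were followed across 4 groups of C2C12 cells. The set is a list of 36 genes named by symbol for their role, out of 53801 gene identifiers in the count data. No threshold on a measured value defines it, but it was drawn up with earlier results of these data known. It covers 7 steps: 7 genes of the linker by which a chain is joined to its protein, 4 heparan polymerases, 5 chondroitin polymerases, 8 enzymes that modify heparan chains, 2 extracellular sulphatases, 8 enzymes that modify chondroitin and dermatan chains and 2 synthases of the sulphate donor. Each symbol matched a single identifier. A filter on low counts left 34 of the 36 genes for testing. The genes not tested were Xylt1 and Hs6st2, with 0 to 3 and 1 to 7 reads summed over the 3 libraries of a group.

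C2C12 is a mouse myoblast line that can fuse into muscle fibres in culture. The 4 groups, of 3 libraries each, were control cells with DMSO, control cells with thapsigargin, Cebpg knockdown cells with DMSO and Cebpg knockdown cells with thapsigargin, each after 6 h. Cebpg encodes C/EBPγ, a bZIP transcription factor that pairs with other C/EBP and ATF proteins. DMSO is the solvent, and thapsigargin blocks the SERCA calcium pump, so that the endoplasmic reticulum loses its calcium and comes under stress. The knockdown appears under the single label Sh2, so an effect of the knockdown and another lasting difference between these cell populations cannot be told apart. Neither the treatment of the control cells at knockdown nor the thapsigargin dose is given in the sources used here. The source field gives C2C12, but HeLa cells are named in the growth protocol. Whether replicates were separate cultures is not stated, so the spread behind each p-value is that between these libraries and may be technical.

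Heparan sulphate and chondroitin sulphate are long sugar chains attached to serines of core proteins in the Golgi. Both start from the same linker of xylose, galactose, galactose and glucuronic acid. The next sugar added decides the type: exostosin family enzymes begin and extend heparan chains, and N-acetylgalactosaminyltransferases begin chondroitin chains, which chondroitin synthases extend. Sulphotransferases and epimerases then modify the growing chain, with PAPS as the sulphate donor. In myoblasts, heparan sulphate proteoglycans at the cell surface bind growth factors such as FGF2 and HGF.

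Libraries held 29.42 to 47.72 M reads assigned to genes. Levels are reads per M gene reads after TMM scaling (CPM), and levels compared between genes are divided further by exon length in kilobases (RPKM). Cebpg was at 51.7, 51.5 and 60.6 CPM in control DMSO replicates 1 to 3 and at 211, 219 and 216 CPM in control thapsigargin libraries. In knockdown cells it was at 4.62, 3.74 and 5.18 CPM with DMSO and at 6.11, 5.58 and 5.29 CPM with thapsigargin, below every control library. The summed level of 6 myoblast markers was 7343 to 7933 CPM in control DMSO libraries and 4982 to 5035 CPM in control thapsigargin libraries. In knockdown cells that sum was 9925 to 11196 CPM with DMSO and 7692 to 8218 CPM with thapsigargin. Vim made up most of it, with means of 5611, 3391, 8866 and 6232 CPM in the order of groups given above, while other members moved otherwise. With thapsigargin Myf5 rose from a mean of 61.8 to 252 CPM in control cells and the other 5 markers fell. With the knockdown in DMSO 3 markers rose and 2 fell, among them Des from 1186 to 764 CPM and Myod1 from 151 to 124 CPM. Sums of 5 endothelial markers were 4.19 to 5.11, 27.5 to 32.3, 5.9 to 6.95 and 18.4 to 21.1 CPM in the same order of groups. For 5 epithelial markers the sums were 14.2 to 15, 18.7 to 21, 14.5 to 17 and 29.2 to 32.4 CPM, and for 5 leukocyte markers they lay between 2.25 and 7.13 CPM. Sums of 5 adipocyte markers lay between 0.815 and 1.89 CPM. Tek made up most of the endothelial sum, with means of 3.86, 22.6, 5.32 and 11.4 CPM in the same order of groups. Single markers differed within a list. Epcam, Ptprc and Adipoq had group means of at most 0.0216, 0.263 and 0.101 CPM, and Lep had 0 reads in each library. Higher were the leukocyte marker Cd68, with group means of 2.05 to 5.6 CPM, and the adipocyte marker Fabp4, with 0.714 to 1.44 CPM. Ptprc had 0 reads in control DMSO libraries and a mean of 0.229 CPM in control thapsigargin libraries. Of the epithelial markers Krt14 made up most of the sum, and all 3 that were tested rose with thapsigargin in both populations. Of these, Krt8 and Krt18 were under 1 CPM in all DMSO libraries. They passed the filter on low counts through the thapsigargin groups, so that their being tested favours a rise. Krt18 went from 0 to 1.44 CPM and Krt8 from 0.116 to 1.03 CPM in control cells, and they went from 0.0907 to 3.92 and from 0.219 to 2.76 CPM in knockdown cells. The part of these marker shifts in the results was not tested.

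Thapsigargin lowered most chain enzyme genes in control cells. The linker phosphatase gene Pxylp1 fell to 9.69% of its DMSO level and the chondroitin sulphotransferase gene Chst15 to 8.54%. The heparan 3-O-sulphotransferase gene Hs3st3b1 rose to 1403% from a low level, and the epimerase gene Glce to 282%. The split of reads between Hs3st3b1 and its relative Hs3st3a1, at 111%, is uncertain. Of the 34 genes tested, 10 rose, 22 fell and 2 did not pass the test, with a median log2 change of -0.38 beside a median of 0 over all genes tested. Over all 15828 genes tested, 37.7% rose and 37.0% fell. Calls here and below are those of edgeR's quasi-likelihood test with a Benjamini-Hochberg adjusted p under 0.05 over all genes tested. In a bulk library a lower level can come from fewer cells of a type or from less RNA per cell, and these cannot be told apart.

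In knockdown cells thapsigargin raised 5 of the 34 genes, lowered 24 and left 5 that did not pass the test. The median log2 change was -0.55 over these genes and 0 over all genes. Over all genes tested, 35.4% rose and 34.4% fell. The difference of the thapsigargin effects, knockdown minus control, was tested in the same model as an interaction. It was positive and past the threshold for 9 genes, negative and past it for 11 and not past it for 14. Over all genes tested 17.6% had a positive and 17.7% a negative difference that passed.

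**Figure D1:**
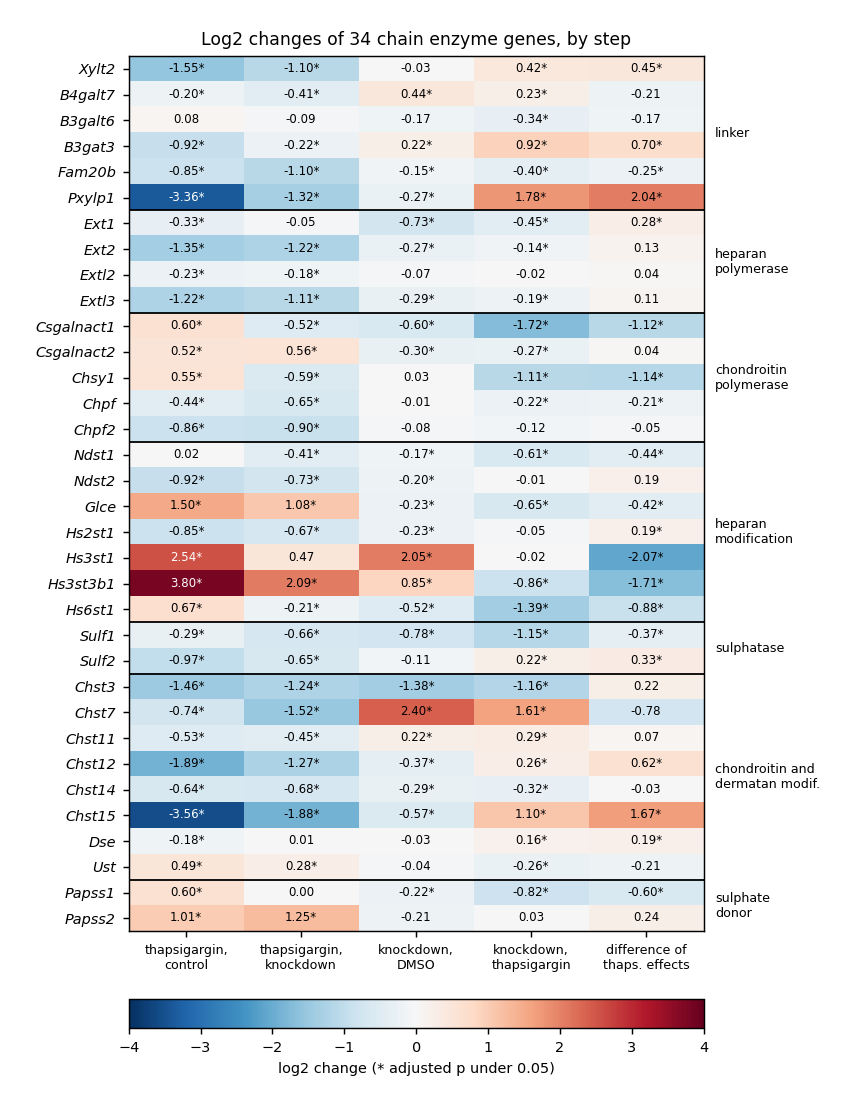
Colour shows the log2 change of each of 34 chain enzyme genes (rows, grouped by step) in 5 comparisons (columns), as fitted over 3 libraries a group. Pxylp1 and Chst15 hold the lowest values with thapsigargin in control cells, -3.36 and -3.56, and Hs3st3b1 the highest, 3.80.

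The sequence before the transcription start is shown for the linker and sulphation genes with the largest changes with thapsigargin, Pxylp1, Chst15 and Hs3st3b1, and for Chsy1, which rose in control and fell in knockdown cells and was chosen after its values were seen. The windows come from RefSeq on GRCm38.p6 and end at the base before the RefSeq start, except that the Hs3st3b1 window is shortened to 244 bases that lie in no protein-coding exon of GENCODE vM21. Capitals mark the letters CCACG and CCAAT on either strand (ATTGG is CCAAT read from the other strand). In order they lie at chr9:96889475-96889724, chr7:132317229-132317478 and chr11:63922291-63922534 on the minus strand and chr7:66109242-66109491 on the plus strand, each printed 5′ to 3′ along its gene. In GENCODE the Pxylp1 gene spans chr9:96823336-96892669, so its window lies inside the gene and outside exons. The other genes span chr7:132235780-132317228, chr11:63885792-63922290 and chr7:66109515-66173798.
Pxylp1: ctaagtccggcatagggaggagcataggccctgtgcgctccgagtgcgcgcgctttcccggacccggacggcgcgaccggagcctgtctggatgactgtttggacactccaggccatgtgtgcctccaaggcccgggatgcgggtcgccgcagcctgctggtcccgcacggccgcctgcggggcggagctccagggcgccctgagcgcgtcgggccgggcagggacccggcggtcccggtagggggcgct
Chst15: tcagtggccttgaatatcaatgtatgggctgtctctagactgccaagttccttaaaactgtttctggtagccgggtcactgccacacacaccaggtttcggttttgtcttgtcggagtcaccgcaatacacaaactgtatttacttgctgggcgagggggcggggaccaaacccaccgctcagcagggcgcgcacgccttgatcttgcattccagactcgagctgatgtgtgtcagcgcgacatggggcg
Hs3st3b1: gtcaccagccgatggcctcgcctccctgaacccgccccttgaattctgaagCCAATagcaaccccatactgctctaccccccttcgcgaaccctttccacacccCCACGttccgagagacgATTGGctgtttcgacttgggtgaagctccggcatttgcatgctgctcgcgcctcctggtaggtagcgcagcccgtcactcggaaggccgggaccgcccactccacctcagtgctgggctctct
Chsy1: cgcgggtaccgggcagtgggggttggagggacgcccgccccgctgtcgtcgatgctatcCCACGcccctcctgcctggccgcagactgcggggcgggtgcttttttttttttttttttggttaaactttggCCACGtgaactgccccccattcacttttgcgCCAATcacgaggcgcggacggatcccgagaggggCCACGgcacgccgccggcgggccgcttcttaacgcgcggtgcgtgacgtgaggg
The Pxylp1 window had 73.6% G or C and the Chst15 window 54.8%, and neither held marked letters. The Chsy1 window held CCACG at positions -191, -119 and -54 from the start and CCAAT at position -88. RefSeq windows of 300 bases, 250 before and 50 after a start, were matched for 30 of the 36 genes and numbered 38. The ER stress response element (CCAAT, 9 further bases, CCACG) was in 0 of these 38 windows and in 0.119% of all 32851 windows. The ATF4-C/EBP element TTGCNTCA was in 0 of 38 and in 3.69% of all. CCACG alone, which is part of the first element, was in 52.6% against 32.8% of all windows, and CCAAT alone in 42.1% against 37.4%. The bases before the start had a median of 64.6% G or C in the chain enzyme windows and 52.4% in all windows. These are matches of letters in these windows and say nothing of binding.

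At the linker, thapsigargin lowered 5 of 6 tested genes in control cells, with a median log2 change of -0.88, and 5 of 6 in knockdown cells. Over all genes tested 37.7% rose and 37.0% fell in control cells, and 35.4% rose and 34.4% fell in knockdown cells. Pxylp1 encodes the phosphatase that removes phosphate from the linker xylose. It was at 71.1, 73.4 and 78.3 CPM in control DMSO libraries and at 7.24, 7.74 and 6.6 CPM with thapsigargin. The knockdown libraries held 62.4, 55.5 and 67.4 CPM with DMSO and 24.4, 25 and 24.8 CPM with thapsigargin. No library with thapsigargin reached the level of a DMSO library, and the knockdown thapsigargin libraries lay above all control thapsigargin libraries. The log2 change was -3.36 (SE 0.07, adjusted p = 4.45e-28) in control and -1.32 (SE 0.07, adjusted p = 2.52e-18) in knockdown cells, a difference of 2.04 (SE 0.10, adjusted p = 3.96e-17).

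Fam20b encodes the kinase that adds the phosphate which Pxylp1 removes. It was at 96.2, 103 and 104 CPM in control DMSO libraries and at 55.5, 56.2 and 56.5 CPM with thapsigargin. In knockdown cells the values were 92.6, 88.4 and 92.5 CPM with DMSO and 45.5, 42 and 39.8 CPM with thapsigargin. Fam20b therefore fell in both cell populations, by 0.85 (SE 0.05, adjusted p = 2.20e-16) and 1.10 (SE 0.05, adjusted p = 9.01e-19) on the log2 scale, with a difference of -0.25 (adjusted p = 0.00608). That difference did not pass with library size as the only scaling (-0.10, adjusted p = 0.31). Per exon length, Pxylp1 made up 51.3%, 50.5% and 51.7% of the sum of Pxylp1 and Fam20b in control DMSO libraries and 15.7%, 16.4% and 14.3% with thapsigargin. In knockdown cells its share was 49%, 47.3% and 51% with DMSO and 43.4%, 45.9% and 47.1% with thapsigargin. The control thapsigargin libraries thus held a lower share than the other 9.

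Xylt2 encodes the xylosyltransferase that places the linker sugar next to the protein, and its relative Xylt1 was at or near 0 reads. Control cells had 0 Xylt1 reads with DMSO, where 3 reads over the group would be 0.0287 CPM. Xylt2 was at 29.6, 33.3 and 27.1 CPM in control DMSO libraries and at 9.68, 10.3 and 10.7 CPM with thapsigargin. Knockdown cells had 30.1, 30.1 and 28.2 CPM with DMSO and 15.1, 13.6 and 12.6 CPM with thapsigargin. All 6 thapsigargin libraries lay below all 6 DMSO libraries. The log2 changes were -1.55 (SE 0.08, adjusted p = 4.38e-18) in control and -1.10 (SE 0.08, adjusted p = 4.34e-14) in knockdown cells, and the difference was 0.45 (SE 0.11, adjusted p = 0.00169).

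The remaining linker genes add the sugars that follow xylose. B3gat3, the glucuronyltransferase that completes the linker, was at 17.3 ± 1.76 CPM (SD, n = 3) in control cells with DMSO and at 9.2 ± 0.806 CPM with thapsigargin. Knockdown cells had 20.2 ± 1.03 and 17.3 ± 0.67 CPM. Its log2 changes were -0.92 (SE 0.08, adjusted p = 1.31e-11) and -0.22 (SE 0.08, adjusted p = 0.0149), with a difference of 0.70 (SE 0.12, adjusted p = 1.03e-05). The smaller of these calls was lost without knockdown DMSO replicate 2 or knockdown thapsigargin replicate 1 (log2 -0.20 to -0.18, adjusted p 0.0508 to 0.0649), with a stricter filter (-0.17, adjusted p = 0.0513) and with library size only (-0.10, adjusted p = 0.275). B4galt7, which adds the galactose next to xylose, changed by -0.20 (SE 0.07, adjusted p = 0.00813) in control and by -0.41 (SE 0.07, adjusted p = 1.54e-06) in knockdown cells. Its call in control cells did not survive removal of control DMSO replicate 2 (-0.16, adjusted p = 0.0571) or a stricter filter (-0.14, adjusted p = 0.0584). B3galt6, which adds the outer galactose, did not pass in either population, at 0.08 (SE 0.08, adjusted p = 0.372) and -0.09 (SE 0.09, adjusted p = 0.379).

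**Figure D2:**
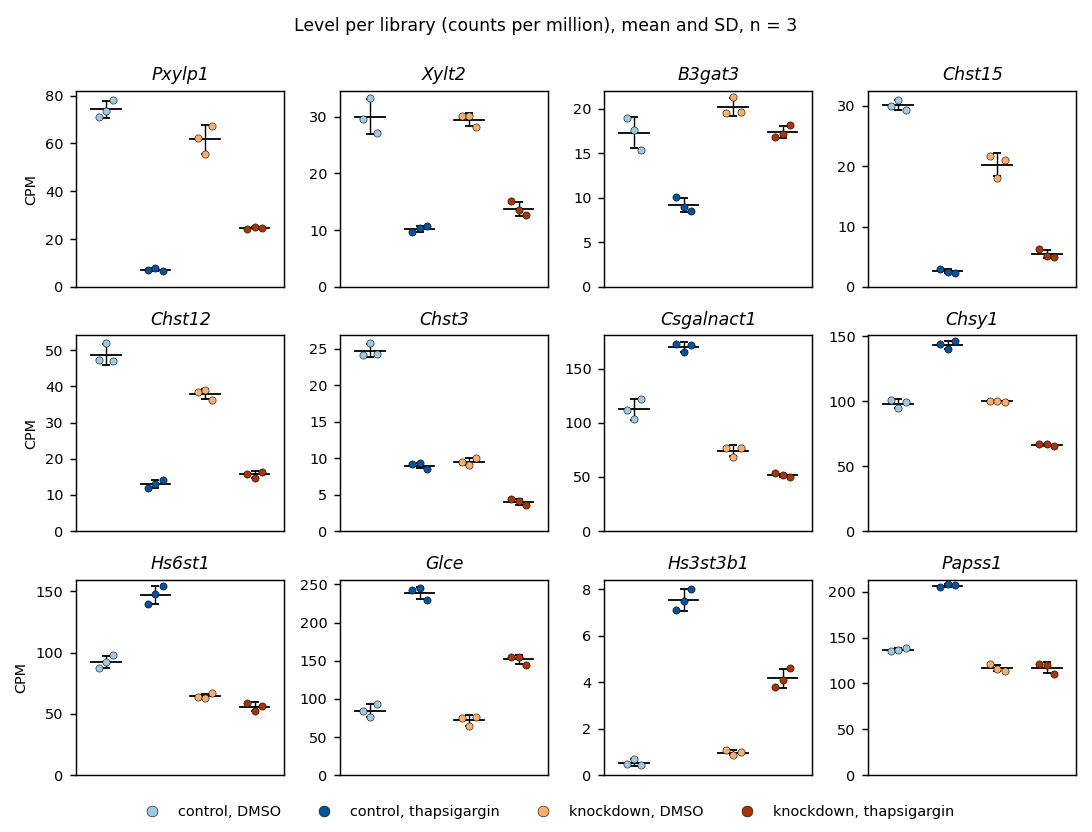
Points are single libraries of 12 chain enzyme genes, in CPM after TMM scaling on a linear y axis, with 3 libraries in each of the 4 groups; horizontal lines are group means and error bars SDs. Pxylp1 and Chst15 are lowest in control cells with thapsigargin, and Csgalnact1, Chsy1 and Hs6st1 are highest there.

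All 4 listed heparan polymerase genes fell in control cells, with a median log2 change of -0.77, and 3 of 4 fell in knockdown cells. The share of all genes tested that fell was 37.0% in control and 34.4% in knockdown cells. The exostosin relative Extl1, not in the set, is left out of these counts and of the step sums. Extl1 rose from 0.232 to 30 CPM in control cells and from 0.164 to 4.11 CPM in knockdown cells, and passed the filter through the thapsigargin groups. Ext1 and Ext2 form the enzyme that extends the chain, Extl3 adds the sugar that commits the linker to heparan, and Extl2 can cap it. Ext1 was the most abundant of the 36 genes per exon length in control DMSO libraries, at 66.7 ± 1.25 RPKM (SD, n = 3), and Ext2 was at 24.1 ± 0.662 RPKM. Ext2 was at 174, 182 and 173 CPM in control DMSO libraries and at 70.2, 69.2 and 67.9 CPM with thapsigargin. In knockdown cells Ext2 was at 148, 142 and 149.6 CPM with DMSO and at 62.9, 63.5 and 62.2 CPM with thapsigargin. The thapsigargin libraries were thus below 71 CPM in both populations and the DMSO libraries above 141 CPM. The log2 changes of Ext2 were -1.35 (SE 0.04, adjusted p = 1.37e-23) and -1.22 (SE 0.04, adjusted p = 6.70e-22), and the difference of 0.13 (SE 0.06, adjusted p = 0.0977) did not pass, but was 0.29 (adjusted p = 0.000301) with library size only.

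Extl3 was at 205, 201 and 202 CPM in control DMSO libraries and at 83.4, 90.1 and 88 CPM with thapsigargin. In knockdown cells it was at 173, 156 and 167 CPM with DMSO and at 80, 73.6 and 76.2 CPM with thapsigargin. Extl3 fell by 1.22 (SE 0.05, adjusted p = 1.77e-21) and 1.11 (SE 0.05, adjusted p = 6.20e-20) on the log2 scale, and the difference of 0.11 (SE 0.07, adjusted p = 0.226) did not pass, but was 0.26 (adjusted p = 0.00203) with library size only. Ext1 was at 539 ± 10.1 CPM (SD, n = 3) in control cells with DMSO and at 430.0 ± 13.6 CPM with thapsigargin, a log2 change of -0.33 (SE 0.04, adjusted p = 2.26e-08). Knockdown cells had 325 ± 10.6 and 314 ± 9 CPM of Ext1, a change of -0.05 (SE 0.04, adjusted p = 0.322) that did not pass, and the difference was 0.28 (SE 0.06, adjusted p = 0.000349), or 0.44 (adjusted p = 5.16e-07) with library size only. Extl2 fell by 0.23 (adjusted p = 0.000353) and 0.18 (adjusted p = 0.0037), the latter not called with library size only (-0.07, adjusted p = 0.287). Its difference of 0.04 (adjusted p = 0.706) was 0.20 (adjusted p = 0.0347) under that scaling.

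Chondroitin polymerase genes were divided in control cells, with 3 of 5 higher and 2 lower with thapsigargin. In knockdown cells 1 rose and 4 fell. Of all genes tested 37.7% rose and 37.0% fell in control cells, and 35.4% rose and 34.4% fell in knockdown cells. Csgalnact1 encodes an N-acetylgalactosaminyltransferase that begins chondroitin chains. It was at 112, 103 and 122 CPM in control DMSO libraries and at 173, 165 and 172 CPM with thapsigargin. The knockdown libraries held 77.1, 68.1 and 76.7 CPM with DMSO and 53.2, 51.4 and 50 CPM with thapsigargin. Thapsigargin libraries lay above DMSO libraries in control cells and below them in knockdown cells. The log2 change was 0.60 (SE 0.05, adjusted p = 9.73e-12) in control and -0.52 (SE 0.06, adjusted p = 1.37e-09) in knockdown cells, a difference of -1.12 (SE 0.08, adjusted p = 4.95e-13).

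Chsy1, a chondroitin synthase that extends the chain, was at 101, 94.4 and 98.9 CPM in control DMSO libraries and at 144, 139.9 and 146 CPM with thapsigargin. Knockdown DMSO libraries held 99.9, 99.9 and 99.4 CPM, and knockdown thapsigargin libraries held 66.9, 66.8 and 65.3 CPM. The 2 DMSO groups overlapped, whereas with thapsigargin every control library was above and every knockdown library below them. Chsy1 changed by 0.55 (SE 0.04, adjusted p = 2.57e-13) in control and by -0.59 (SE 0.04, adjusted p = 1.77e-13) in knockdown cells, a difference of -1.14 (SE 0.06, adjusted p = 6.07e-16).

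Csgalnact2, the other enzyme that begins chondroitin chains, rose in both populations, by 0.52 (SE 0.06, adjusted p = 2.30e-09) and 0.56 (SE 0.06, adjusted p = 1.30e-09), with a difference of 0.04 (SE 0.08, adjusted p = 0.78). Per exon length, Csgalnact1 made up 65.5%, 66.7% and 66% of the pair in control DMSO libraries and 67.9%, 66.6% and 67.3% with thapsigargin. Its share was 61.9%, 59.7% and 62.1% in knockdown cells with DMSO and 43.5%, 40.9% and 44.1% with thapsigargin. Csgalnact1 was thus the larger of the pair in 9 libraries and the smaller in the 3 knockdown thapsigargin libraries. Chpf and Chpf2, partners of the chondroitin synthases, fell in both populations. Chpf went from 113 ± 4.69 to 83.5 ± 5.54 CPM (SD, n = 3) in control cells and from 113 ± 7.07 to 71.9 ± 3.33 CPM in knockdown cells. Its difference of -0.21 (adjusted p = 0.0299) was lost when any of 7 single libraries was left out (-0.21 to -0.17, adjusted p 0.0599 to 0.0911), namely control DMSO 3, control thapsigargin 2 or 3, knockdown DMSO 1 or 2 and knockdown thapsigargin 2 or 3. It was lost with no filter too (-0.19, adjusted p = 0.0527) and with library size only (-0.05, adjusted p = 0.625). Chpf2 changed by -0.86 (SE 0.06, adjusted p = 4.40e-15) and -0.90 (SE 0.06, adjusted p = 3.43e-15). Of its exon bases 44.1% overlap other genes, mainly Smarcd3 on the other strand at 25.8 to 37.1 CPM, so its reads are uncertain.

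**Figure D3:**
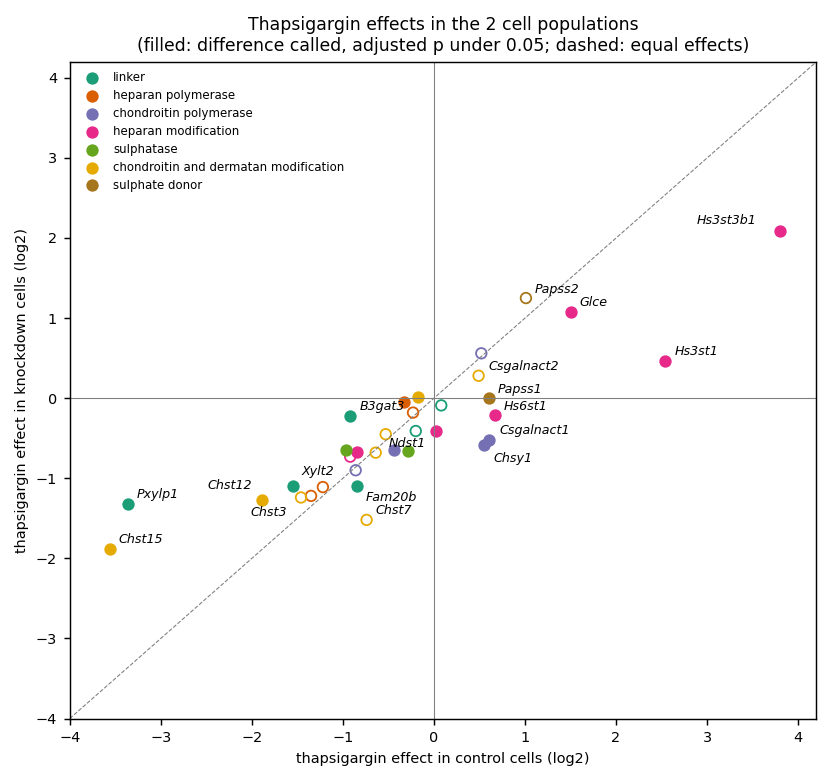
Each point is 1 of 34 chain enzyme genes, with its log2 change with thapsigargin in control cells on the x axis and in knockdown cells on the y axis. Filled points are the 20 genes whose difference passed the test. Csgalnact1, Chsy1 and Hs6st1 lie right of 0 and below 0.

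Of 7 tested heparan modification genes 4 rose in control cells, 2 fell and 1 did not pass. The 4 include Hs3st1, which is near the limit of detection. In knockdown cells 2 rose and 4 fell. These counts stand beside 37.7% up and 37.0% down over all genes in control cells, and 35.4% and 34.4% in knockdown cells. Glce encodes the epimerase that turns glucuronic into iduronic acid. It was at 84, 76.8 and 93.5 CPM in control DMSO libraries and at 242, 245 and 229.8 CPM with thapsigargin. Knockdown cells had 75.6, 64.1 and 76.4 CPM with DMSO and 155, 155 and 145 CPM with thapsigargin. The thapsigargin groups stood above all DMSO libraries and did not overlap each other. The log2 changes were 1.5 (SE 0.06, adjusted p = 1.04e-16) and 1.08 (SE 0.06, adjusted p = 1.71e-13), with a difference of -0.42 (SE 0.09, adjusted p = 0.00061), which was -0.26 (adjusted p = 0.0306) with library size only.

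Hs6st1 encodes a heparan 6-O-sulphotransferase. It was at 87.5, 92 and 97.8 CPM in control DMSO libraries and at 139.7, 148 and 154 CPM with thapsigargin. Knockdown cells had 63.7, 63.4 and 66.7 CPM with DMSO and 59.2, 52.2 and 56.6 CPM with thapsigargin. Every knockdown library was below every control library, and the largest gap was among thapsigargin libraries. Hs6st1 changed by 0.67 (SE 0.05, adjusted p = 1.19e-13) in control and by -0.21 (SE 0.05, adjusted p = 0.00112) in knockdown cells, a difference of -0.88 (SE 0.07, adjusted p = 2.33e-11). The fall in knockdown cells did not pass with library size only (-0.09, adjusted p = 0.169). The related gene Hs6st2 was near 0 reads in all groups.

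Hs3st3b1 encodes a 3-O-sulphotransferase, an enzyme of the last and rarest modification. It was at 0.466, 0.716 and 0.433 CPM in control DMSO libraries and at 7.11, 7.52 and 8.04 CPM with thapsigargin. In knockdown cells it was at 1.07, 0.884 and 0.983 CPM with DMSO and at 3.79, 4.12 and 4.61 CPM with thapsigargin. No 2 of the 4 groups overlapped, and all 4 were low in absolute terms, with at most 1.54 RPKM as a group mean. The log2 changes were 3.80 (SE 0.18, adjusted p = 3.05e-19) and 2.09 (SE 0.17, adjusted p = 1.57e-12), with a difference of -1.71 (SE 0.28, adjusted p = 8.67e-06). Hs3st3b1 and Hs3st3a1 are near-identical in part, so the split of reads between them is uncertain. Hs3st3a1 had means of 4.41 and 4.88 CPM in control cells with DMSO and thapsigargin and 3.85 and 7.17 CPM in knockdown cells. The log2 changes of Hs3st3a1 were 0.15 (adjusted p = 0.321) and 0.89 (adjusted p = 5.45e-07), a difference of 0.74 (adjusted p = 0.00239). That difference had the opposite sign, and the effect for both genes together was not tested. Hs3st1, of the same class, was under 1 CPM in all 12 libraries and passed the filter through its higher groups, so that its being tested favours a difference. Hs3st1 means were 0.0868 and 0.535 CPM in control cells with DMSO and thapsigargin and 0.365 and 0.514 CPM in knockdown cells. The DMSO groups, of 9 and 37 reads, overlapped, and the knockdown effect under thapsigargin did not pass (-0.02, adjusted p = 0.965). With thapsigargin Hs3st1 changed by 2.54 (SE 0.55, adjusted p = 0.000114) in control cells and by 0.47 (SE 0.43, adjusted p = 0.332) in knockdown cells. The difference of -2.07 (adjusted p = 0.0236) was lost without control DMSO 1 or 2, control thapsigargin 3 or knockdown DMSO 2 or 3 (-2.08 to -1.68, adjusted p 0.051 to 0.0898) and with limma-voom (-1.87, adjusted p = 0.0511).

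Ndst1 and Ndst2 encode enzymes that remove acetyl groups and add N-sulphate, the modification on which later ones depend. Ndst1 was at 121 ± 2.9 and 123 ± 0.536 CPM (SD, n = 3) in control cells with DMSO and thapsigargin and at 107 ± 6.73 and 80.6 ± 4.69 CPM in knockdown cells. It changed by 0.02 (SE 0.05, adjusted p = 0.651) and -0.41 (SE 0.05, adjusted p = 6.45e-09), with a difference of -0.44 (SE 0.07, adjusted p = 4.96e-06), which was -0.28 (adjusted p = 0.00203) with library size only. Ndst2 fell in both, by 0.92 (SE 0.06, adjusted p = 1.07e-14) and 0.73 (SE 0.07, adjusted p = 1.07e-11), and the difference of 0.19 (SE 0.09, adjusted p = 0.0975) did not pass, but was 0.35 (adjusted p = 0.00259) with library size only. Per exon length, Ndst1 held 63.6% to 66% of the pair in control DMSO libraries and 77.1% to 78.5% with thapsigargin. The corresponding shares in knockdown cells were 64.5% to 66.4% and 69.7% to 70.5%. The relatives Ndst3 and Ndst4, not in the set, are left out of these shares. With thapsigargin they had means of 9.92 and 8.41 CPM in control cells and 2.75 and 7.88 CPM in knockdown cells. Ndst3 changed by 0.89 in control and -1.36 in knockdown cells, a difference of -2.25 (adjusted p = 6.37e-12). Ndst4 changed by 2.41 and 0.78, a difference of -1.63 (adjusted p = 3.69e-08). With DMSO Ndst4 was at 1.58 CPM in control and 4.57 CPM in knockdown cells, a knockdown effect of 1.53 (adjusted p = 6.87e-10). Under thapsigargin the knockdown effect on Ndst4, -0.10 (adjusted p = 0.488), did not pass, whereas that on Ndst3 was -1.84 (adjusted p = 6.55e-14). Hs2st1, the 2-O-sulphotransferase of iduronic acid, fell from 152 ± 2.33 to 84.2 ± 1.63 CPM in control and from 129 ± 4.73 to 81.4 ± 3.24 CPM in knockdown cells. Its difference of 0.19 (adjusted p = 0.0215) was lost without control DMSO 2, control thapsigargin 1, knockdown DMSO 2 or knockdown thapsigargin 1 (0.15 to 0.17, adjusted p 0.0604 to 0.0809), and was 0.34 (adjusted p = 6.35e-05) with library size only.

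Sulf1 and Sulf2 encode the extracellular sulphatases that remove 6-O-sulphate from finished heparan chains, and both fell in both populations. Sulf1 was at 179, 182 and 183 CPM in control DMSO libraries and at 148, 147 and 152 CPM with thapsigargin. In knockdown cells Sulf1 was at 106, 97.3 and 114 CPM with DMSO and at 67.6, 65.6 and 68 CPM with thapsigargin. The 4 groups of Sulf1 did not overlap, and the knockdown groups were below both control groups. Sulf1 changed by -0.29 (SE 0.05, adjusted p = 1.72e-06) and -0.66 (SE 0.05, adjusted p = 1.17e-13), with a difference of -0.37 (SE 0.07, adjusted p = 4.18e-05), which was -0.21 (adjusted p = 0.0146) with library size only. Sulf2 went from 79.6 ± 3.53 to 40.6 ± 3.22 CPM (SD, n = 3) in control cells and from 73.7 ± 2.24 to 47.1 ± 2 CPM in knockdown cells. Its log2 changes were -0.97 (SE 0.06, adjusted p = 8.51e-17) and -0.65 (SE 0.06, adjusted p = 4.55e-12), and its difference was 0.33 (SE 0.08, adjusted p = 0.00135). Per exon length, Sulf1 held 53.5% to 55.6% of the pair in control DMSO libraries, 64.1% to 66.9% in control thapsigargin libraries, 41.3% to 44.7% in knockdown DMSO libraries and 41.8% to 43.1% in knockdown thapsigargin libraries.

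**Figure D4:**
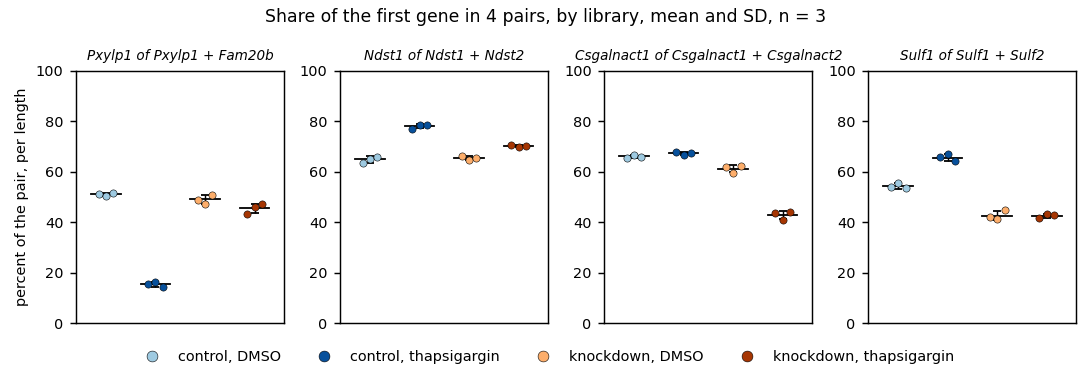
Points are libraries, with 3 libraries a group, lines at group means and SD error bars. The y axis is the percent of the summed RPKM of a gene pair that the named gene holds. Panels show Pxylp1 of Pxylp1 and Fam20b, Ndst1 of Ndst1 and Ndst2, Csgalnact1 of both Csgalnact genes and Sulf1 of both Sulf genes. The Pxylp1 share is 14.3% to 16.4% in control cells with thapsigargin, and the Csgalnact1 share is 40.9% to 44.1% in knockdown cells with thapsigargin.

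Chondroitin and dermatan modification genes moved mostly down: 7 of 8 fell and 1 rose in control cells, with a median log2 change of -0.69, and 6 fell and 1 rose in knockdown cells. Among all genes tested 37.0% fell and 37.7% rose in control cells, and 34.4% fell and 35.4% rose in knockdown cells. Chst15 encodes the sulphotransferase that adds 6-O-sulphate to galactosamine already sulphated at 4-O. It was at 29.9, 31 and 29.4 CPM in control DMSO libraries and at 2.93, 2.54 and 2.25 CPM with thapsigargin. The knockdown libraries held 21.7, 18.1 and 21 CPM with DMSO and 6.26, 5.19 and 4.99 CPM with thapsigargin. As for Pxylp1, the control thapsigargin libraries were the lowest and did not overlap the knockdown thapsigargin libraries. The log2 changes were -3.56 (SE 0.10, adjusted p = 5.14e-25) and -1.88 (SE 0.09, adjusted p = 4.25e-18), with a difference of 1.67 (SE 0.15, adjusted p = 5.37e-11). Of the Chst15 exon bases 17.9% overlap the antisense gene Gm10584, which held 0 to 0.145 CPM.

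Chst12, a chondroitin 4-O-sulphotransferase gene, was at 47.3, 52.1 and 47 CPM in control DMSO libraries and at 12, 13.1 and 14.2 CPM with thapsigargin. Knockdown cells had 38.4, 39.1 and 36.2 CPM with DMSO and 15.9, 14.7 and 16.4 CPM with thapsigargin. Chst12 fell by 1.89 (SE 0.07, adjusted p = 3.28e-22) and 1.27 (SE 0.07, adjusted p = 3.42e-17) on the log2 scale, a difference of 0.62 (SE 0.10, adjusted p = 4.65e-06). Chst11, the other chondroitin 4-O-sulphotransferase gene listed, fell less, from 118 ± 1.27 to 82.2 ± 1.03 CPM (SD, n = 3) in control cells and from 138 ± 5.11 to 101 ± 7.59 CPM in knockdown cells. Its log2 changes were -0.53 (SE 0.05, adjusted p = 1.47e-11) and -0.45 (SE 0.05, adjusted p = 4.95e-10), and the difference of 0.07 (SE 0.07, adjusted p = 0.455) did not pass, but was 0.23 (adjusted p = 0.00777) with library size only. Chst14, which adds 4-O-sulphate to dermatan, changed by -0.64 (SE 0.06, adjusted p = 6.56e-12) and -0.68 (SE 0.06, adjusted p = 8.00e-12).

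Chst3, a chondroitin 6-O-sulphotransferase gene, was at 24.1, 25.7 and 24.3 CPM in control DMSO libraries and at 9.13, 9.26 and 8.54 CPM with thapsigargin. In knockdown cells Chst3 was at 9.44, 9.08 and 9.98 CPM with DMSO and at 4.41, 4.12 and 3.55 CPM with thapsigargin. Knockdown cells in DMSO thus overlapped control cells in thapsigargin, and knockdown cells in thapsigargin were lowest. Chst3 changed with thapsigargin by -1.46 (SE 0.08, adjusted p = 2.17e-17) and -1.24 (SE 0.10, adjusted p = 7.97e-13), and the difference of 0.22 (SE 0.13, adjusted p = 0.197) did not pass, but was 0.38 (adjusted p = 0.0183) with library size only. Chst7, its relative, was under 1 CPM in all 6 control libraries, at 3.1, 4.39 and 3.61 CPM in knockdown DMSO libraries and at 1.41, 1.13 and 1.32 CPM in knockdown thapsigargin libraries. The call of Chst7 in control cells (-0.74, adjusted p = 0.0384) was lost without control DMSO 2 or 3 or control thapsigargin 2 or 3 (-0.70 to -0.52, adjusted p 0.0814 to 0.2), with limma-voom (-0.69, adjusted p = 0.0943) and with only the groups compared (-0.72, adjusted p = 0.0697).

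Ust, the uronyl 2-O-sulphotransferase gene, was the only gene of this step that rose, from 36 ± 1.65 to 50.7 ± 2.04 CPM (SD, n = 3) in control cells and from 34.9 ± 1.79 to 42.4 ± 4.4 CPM in knockdown cells. The log2 changes were 0.49 (SE 0.06, adjusted p = 2.31e-08) and 0.28 (SE 0.06, adjusted p = 0.000298). The difference of -0.21 (adjusted p = 0.068) did not pass, but passed without knockdown DMSO 2 or knockdown thapsigargin 1 (-0.28 to -0.25, adjusted p 0.0191 to 0.0318), with a stricter filter (-0.23, adjusted p = 0.0463) and with a replicate block (-0.21, adjusted p = 0.0458). Dse, the epimerase that turns chondroitin into dermatan, fell by 0.18 (adjusted p = 0.00236) in control cells and was at 0.01 (adjusted p = 0.826) in knockdown cells. The fall was -0.11 (adjusted p = 0.0398) with a stricter filter. The difference for Dse, 0.19 (adjusted p = 0.0377), was lost when any of 8 single libraries was left out (0.15 to 0.20, adjusted p 0.0526 to 0.12), namely control DMSO 1 or 3, control thapsigargin 1 or 2, knockdown DMSO 2 or 3 and knockdown thapsigargin 2 or 3. With library size only it was 0.35 (adjusted p = 0.000214).

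Papss1 encodes the main synthase of the sulphate donor PAPS here, with 99% to 99.8% of the summed RPKM of Papss1 and Papss2 in every library. It was at 137 ± 1.94 CPM (SD, n = 3) in control cells with DMSO and at 207 ± 1.04 CPM with thapsigargin, a log2 change of 0.60 (SE 0.04, adjusted p = 5.51e-14). Knockdown cells had 117 ± 3.74 and 117 ± 6.04 CPM, a change of 0 (SE 0.04, adjusted p = 0.948) that became 0.12 (adjusted p = 0.019) with library size only. The difference for Papss1 was -0.60 (SE 0.06, adjusted p = 2.40e-09). Papss2, at 0.356 to 1.43 CPM, rose by 1.01 (adjusted p = 0.000915) and 1.25 (adjusted p = 0.000162).

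Steps were summed in RPKM, with no test since the genes were chosen with results known. Linker genes were at 48.8 to 51.2 in control DMSO libraries and 24.5 to 25.2 with thapsigargin. Within the linker sum the phosphatase gene Pxylp1 alone went from 12.1 to 1.17 RPKM in control cells and from 10 to 4.02 RPKM in knockdown cells. The mean linker sum went from 49.9 to 24.9 and from 50.1 to 30.6 RPKM, so the linker percentages below rest in part on Pxylp1. Thapsigargin libraries of control cells held 49.9% of the DMSO mean at the linker, 64.3% for heparan polymerases and 63.7% for chondroitin and dermatan modification. They held 116% for chondroitin polymerases, 132% for heparan modification, 67.9% for sulphatases and 151% for the sulphate donor. In control cells the linker and heparan polymerase sums with thapsigargin were thus below those of every DMSO library, and the heparan modification sum was above them. That rise was carried by Glce, an epimerase: Glce went from 12.4 to 35 RPKM, and the other 7 genes of the step summed to 57.8 ± 0.845 RPKM (SD, n = 3) with DMSO and 57.6 ± 1.38 RPKM with thapsigargin, or 99.6%. In knockdown cells the same percentages were 61% at the linker, 71.2% for heparan polymerases, 73.4% for chondroitin polymerases and 98.5% for heparan modification, or 73.5% without Glce. For sulphatases, chondroitin and dermatan modification and the donor they were 63.7%, 71% and 100.3%. Sums for chondroitin polymerases were 109 to 113 RPKM in control and 60.6 to 64.7 RPKM in knockdown thapsigargin libraries, with 93.3 to 97.2 and 84.5 to 87.1 RPKM in the DMSO libraries.

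**Figure D5:**
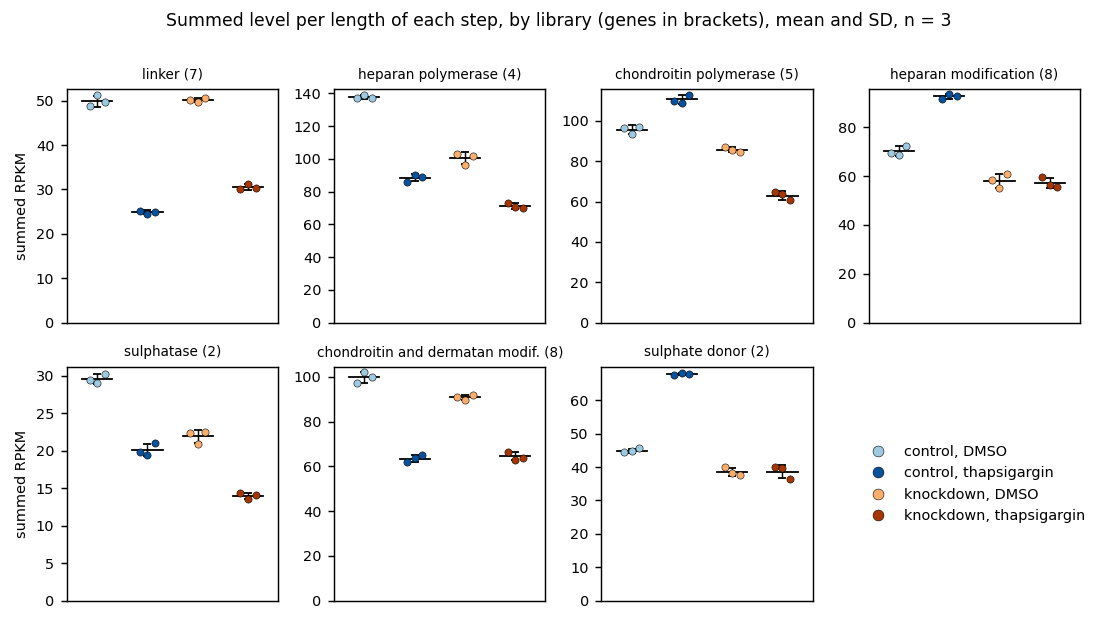
Points are libraries, and the y axis is the RPKM summed over the genes of a step, with a panel for each of 7 steps, 3 libraries in each of 4 groups, and group means with SD error bars. Chondroitin polymerase, heparan modification and sulphate donor sums are highest in control cells with thapsigargin, and linker sums are lowest there.

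Without thapsigargin, the knockdown lowered 18 of the 34 genes tested, raised 6 and left 10 that did not pass, with a median log2 change of -0.19 beside 0 over all genes. Over all genes tested 25.0% rose and 26.5% fell. Chst3 fell the most, by 1.38 (SE 0.08, adjusted p = 1.01e-15) on the log2 scale, and Chst7, at low level, rose the most, by 2.4 (SE 0.23, adjusted p = 2.51e-10). Among the more abundant genes Sulf1 fell by 0.78 (SE 0.05, adjusted p = 2.91e-15), Ext1 by 0.73 (SE 0.04, adjusted p = 8.19e-16), Csgalnact1 by 0.60 (SE 0.05, adjusted p = 8.32e-11) and Hs6st1 by 0.52 (SE 0.05, adjusted p = 6.25e-10). B4galt7 rose by 0.44 (SE 0.07, adjusted p = 9.14e-07) and Chst11 by 0.22 (SE 0.05, adjusted p = 0.000243). By step, 2 of 6 linker genes rose and 2 fell, and 2 of 8 chondroitin and dermatan modification genes rose and 4 fell. Of 7 heparan modification genes 2 rose and 5 fell. The 2 that rose were low: Hs3st1 (0.0868 to 0.365 CPM), with overlapping groups, and Hs3st3b1 (0.538 to 0.978 CPM). Hs3st1 passed the filter on low counts through its higher groups, and reads of Hs3st3b1 are not surely split from Hs3st3a1. A stricter filter removed both. In the remaining steps none rose: 3 of 4 heparan polymerase genes, 2 of 5 chondroitin polymerase genes, 1 of 2 sulphatase genes and 1 of 2 donor genes fell. Among the smaller calls, 2 were lost when 1 library was left out. Fam20b (-0.15, adjusted p = 0.0122) was lost without control DMSO 2 or 3 or knockdown DMSO 2 (-0.13, adjusted p 0.0519 to 0.065). B3gat3 (0.22, adjusted p = 0.02) was lost without control DMSO 3 or knockdown DMSO 2 (0.14 to 0.17, adjusted p 0.0982 to 0.172).

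Under thapsigargin, the knockdown raised 10 of the 34 genes, lowered 18 and left 6 that did not pass. The median log2 change was -0.16 beside 0.02 over all genes. Over all genes tested 28.5% rose and 28.4% fell. By step, 4 of 6 linker genes rose and 2 fell, and 5 of 8 chondroitin and dermatan modification genes rose and 3 fell. Of 2 sulphatase genes 1 rose and 1 fell. None rose in the remaining steps. There 3 of 4 heparan polymerase, 4 of 5 chondroitin polymerase, 4 of 7 heparan modification and 1 of 2 donor genes fell. These comparisons share the control thapsigargin libraries with the thapsigargin effect in control cells, so the values stand side by side and do not support each other. Pxylp1 was higher in knockdown cells by 1.78 (SE 0.08, adjusted p = 3.19e-19), to 344% of the control level. Chst7, at low level, was higher by 1.61 (SE 0.29, adjusted p = 1.56e-05). Chst15 was higher by 1.10 (SE 0.12, adjusted p = 3.28e-09), and B3gat3 by 0.92 (SE 0.08, adjusted p = 3.64e-11). Lower in knockdown cells were Csgalnact1 by -1.72 (SE 0.06, adjusted p = 3.70e-22), Hs6st1 by -1.39 (SE 0.05, adjusted p = 4.32e-21), Chst3 by -1.16 (SE 0.10, adjusted p = 6.36e-12), Sulf1 by -1.15 (SE 0.05, adjusted p = 8.28e-20) and Chsy1 by -1.11 (SE 0.04, adjusted p = 1.53e-20). Hs3st3b1, Papss1 and Glce were lower by -0.86, -0.82 and -0.65 (adjusted p = 6.60e-07, 5.12e-17 and 1.79e-09). Hs3st3a1, from which the reads of Hs3st3b1 are not surely split, was higher by 0.55 (adjusted p = 0.00043). Dse (0.16, adjusted p = 0.00845) was lost without knockdown thapsigargin replicate 2 (0.12, adjusted p = 0.0691), and Chpf2 (-0.12, adjusted p = 0.0758) passed without knockdown thapsigargin replicate 1 (-0.16, adjusted p = 0.0405). With library size as the only scaling, 66.6% of all calls in this comparison were up against 50.1%, and for the difference of effects 75.5% against 49.9%.

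Genes around these enzymes were described from 6 further lists, by counts in control cells with thapsigargin and, from each list, up to 3 of the largest changes. Over all genes tested 37.7% rose and 37.0% fell in this comparison. Of 12 relatives not in the set, 6 were tested, of which 3 rose and 1 fell. Extl1, an exostosin relative, went from 0.232 ± 0.155 to 30 ± 2.17 CPM (SD, n = 3) in control cells, a log2 change of 7 (SE 0.19, adjusted p = 1.59e-23). In knockdown cells Extl1 went from 0.164 ± 0.1 to 4.11 ± 0.785 CPM, a change of 4.65 (SE 0.28, adjusted p = 8.01e-15), with a difference of -2.35 (adjusted p = 0.00361). Extl1 was under 1 CPM in all DMSO libraries and passed the filter through the thapsigargin groups, so that its being tested favours a difference. Ndst4 rose by 2.41 and Dsel, a relative of Dse, fell by 1.30 (adjusted p = 2.21e-16 and 3.09e-18). In sugar precursor and transport genes 3 of 16 rose and 9 fell, with the sulphate transporter gene Slc26a2 at 0.94, the nucleotidase gene Cant1 at -0.87 and the UDP-xylose synthase gene Uxs1 at -0.71. The changes of all 3 passed the test (adjusted p = 4.65e-15, 3.59e-17 and 1.60e-15).

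Genes of heparan core proteins fell with thapsigargin in 9 of 10 cases and rose in none in control cells. The counts in this paragraph stand beside 37.7% of all genes tested that rose and 37.0% that fell. Agrn fell by 1.67, Sdc4 by 1.47 and Sdc3 by 1.23 on the log2 scale (adjusted p = 4.86e-20, 4.42e-24 and 2.08e-20), all of which encode proteins that carry heparan chains. Core protein genes of chondroitin and dermatan chains were divided, with 4 of 8 higher and 4 lower. The 4 higher include Bcan (0.106 to 0.305 CPM) and Srgn (0.317 to 0.58 CPM), under 1 CPM in every library. Both passed the filter through their higher libraries, so that their being tested favours a difference. Cd74 rose by 3.02 and Cspg4 by 0.72, and the decorin gene Dcn fell by 0.47 (adjusted p = 1.14e-06, 3.66e-13 and 0.00103). Chain breakdown genes fell in 13 of 17 cases and rose in 1, led by Gusb at -1.70, Naglu at -1.45 and Hgsnat at -1.41 (adjusted p = 2.64e-24, 2.76e-19 and 4.47e-21), which encode lysosomal enzymes. Of 3 hyaluronan synthase genes 2 fell, and Has2 went from 61.1 ± 2.47 to 8.43 ± 0.666 CPM (SD, n = 3) in control cells and from 146 ± 2.76 to 26.3 ± 1.14 CPM in knockdown cells. For Has2 the log2 changes were -2.86 (SE 0.06, adjusted p = 4.03e-28) and -2.47 (SE 0.05, adjusted p = 1.01e-27).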

How the data were processed

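Poly(A) RNA of 12 C2C12 libraries was sequenced, and the authors deposited raw read counts per gene. Per the submitters' processing notes, reads were trimmed with Trim Galore and aligned with STAR 2.5.3a; bedtools 2.31.0, DESeq2 and the builds mm10 and hg38 are named there too. Counter, annotation release and strand are not given in the sources used here; reads of overlapping or antisense genes are therefore uncertain. Entries that name no gene (13.32% to 14.61% of reads) were left out. Of 53801 identifiers 53706 matched GENCODE vM21 on GRCm38.

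Tests used edgeR 4.0.16 (robust quasi-likelihood fit over the 4 groups, TMM scaling, its low-count filter, 15828 genes tested), with Benjamini-Hochberg adjustment over all genes tested and calls under 0.05. SEs are approximate, taken as the size of the log2 change over the root of its F statistic. The common coefficient of variation was 4.67%. Scripts were tested on simulated data. The members and lists were chosen with earlier results of these data known. All 36 members are named, with values per library for those that changed by at least 1 on the log2 scale and reached 5 CPM in a group; other lists give up to 3 genes that reached 5 CPM. Alternatives were RLE, upper-quartile and library size scaling, other filters, DESeq2 1.42.0, limma-voom (limma 3.58.1), only the groups compared, a replicate block and each library left out. Scripts ran in R 4.3.3 and in Python 3.11.15 with pandas 2.3.3; figures used matplotlib 3.10.9.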

Additional observations from a re-analysis of the deposited data

Results flagged for a closer look

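The thapsigargin effect differed between knockdown and control cells, by the interaction test in edgeR, for 20 of the 34 chain enzyme genes tested, 9 with a positive and 11 with a negative difference. Over all genes tested 17.6% had a positive and 17.7% a negative difference that passed. The 20 include Hs3st1, which passed the filter on low counts through its higher groups. They also include Hs3st3b1, whose reads are not surely split from those of Hs3st3a1, where the difference was 0.74. Each value is the log2 effect in knockdown cells minus that in control cells. It was positive at the linker for Xylt2 (0.45), B3gat3 (0.70) and Pxylp1 (2.04) and negative for Fam20b (-0.25). Among polymerase genes it was 0.28 for Ext1, -1.12 for Csgalnact1, -1.14 for Chsy1 and -0.21 for Chpf. Heparan modification genes had -0.44 for Ndst1, -0.42 for Glce, 0.19 for Hs2st1, -2.07 for Hs3st1, -1.71 for Hs3st3b1 and -0.88 for Hs6st1. The sulphatase genes differed in sign, at -0.37 for Sulf1 and 0.33 for Sulf2. Chondroitin and dermatan modification genes had 0.62 for Chst12, 1.67 for Chst15 and 0.19 for Dse, and the donor gene Papss1 had -0.60. The values for Chpf, Hs2st1, Hs3st1 and Dse did not pass in some fits with 1 library left out, and those for Fam20b and Chpf did not pass with library size only.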

How the results depend on the processing

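Of 133 calls on chain enzyme genes, 116 stayed past the threshold under each alternative that could be run for them, 17 were lost at least once and none of the 133 turned direction. Those alternatives numbered 21 for most values, and 19 or 20 for the differences of effects, which need all 4 groups, and for Hs3st1, Hs3st3b1, Chst7 and Papss2, which a stricter filter removed. Of 37 values not past it, 12 passed at least once and 18 changed sign at least once. Papss1 with thapsigargin in knockdown cells turned to 0.12 (adjusted p = 0.019) with library size only, a scaling that moves the median of all genes by 0.12 there, by 0.13 for the knockdown under thapsigargin and by 0.16 for the difference of effects. That scaling ended the calls of the knockdown under thapsigargin for Ext2, Extl3, Chpf and Ust (log2 0, -0.05, -0.08 and -0.12), and gave 15 genes with a positive difference in place of 9. A stricter filter, which left 30 of the genes, gave 3 raised by thapsigargin in knockdown cells in place of 5 and 3 raised by the knockdown in DMSO in place of 6. Leaving out 1 library kept each count of genes within 1.5 times its value.

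Step sums with thapsigargin as a percent of DMSO moved by more than the spread between libraries in these cases. Without division by exon length they were 45% (control) and 54.1% (knockdown) at the linker, 128% for heparan modification in control cells, 72.6% for sulphatases in control cells, and 66.9% and 75.1% for chondroitin and dermatan modification. Scaled by total gene reads they were 48.6% and 66.3% at the linker, 62.6% and 77.3% for heparan polymerases, 113% and 79.7% for chondroitin polymerases, 128% and 107% for heparan modification, 69.1% for sulphatases in knockdown cells, 62% and 77.1% for chondroitin and dermatan modification, and 147% and 109% for the donor.

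Same-numbered libraries of different groups did not deviate together (r -0.03 to 0.077 over 18 pairs; 6 of 12 libraries correlated best with their own number). A replicate block changed 1 call, the Ust difference, to -0.21 (adjusted p = 0.0458). Depth limits Xylt1, Hs6st2, Hs3st1, Papss2 and Chst7, which held few reads.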
